A study of Mus musculus with 14 samples.

Results

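Gm49980 is a long non-coding RNA (lncRNA) gene of mouse chromosome 18, and Pik3c3 is the protein-coding gene that starts immediately after it on the same strand. They are 2 of the 46904 genes with a row in the deposited table. Gm49980 was chosen by the genotype contrasts themselves, as the lncRNA away from chromosome 4, the chromosome of Cort, that differed between Cort-/- and Cort+/+ mice in both hemispheres. Its genotype difference is therefore given here as a description with no test. Pik3c3 was chosen by its position, and its own values were tested.

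Cortistatin, the neuropeptide encoded by Cort, was absent by design in the Cort-/- mice, and the study compared these with wild-type Cort+/+ mice after transient middle cerebral artery occlusion (MCAO), a model of ischemic stroke in which a filament blocks the main artery of 1 hemisphere. RNA was sequenced from the contralateral (CL) and the ischemic (MCAO) hemisphere. The 14 libraries were 3 of Cort+/+ CL, 3 of Cort-/- CL, 3 of Cort+/+ MCAO and 5 of Cort-/- MCAO hemispheres. The Cort-/- line was kept on a C57BL/6J background, and all animals were young males of 12 weeks that had an occlusion of 20 min, with brains taken at 48 h. The CL samples are labelled as having no treatment, but they came from the healthy hemisphere of operated mice, so no group of unoperated mice was included. The study describes its Cort-/- mice as a constitutive knockout. The labels and methods describe the replicates as independent, but do not say whether a CL and an MCAO library came from the same mouse, nor whether the Cort+/+ mice were littermates of the Cort-/- mice. The methods state that replicates which did not group clearly were left out of some comparisons, and the Cort+/+ MCAO libraries carry the numbers 2, 3 and 4.

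Pik3c3 encodes Vps34, the class III phosphatidylinositol 3-kinase. Vps34 makes the lipid phosphatidylinositol 3-phosphate (PI3P) on endosomes and on the membranes from which autophagosomes form, and it works as a complex with Pik3r4 (Vps15) and Becn1 (Beclin 1). Neurons depend on it for endosomal sorting and autophagy. Many lncRNA genes lie close to the start of a protein-coding gene, and expression of such neighbours can be linked or independent. The function of Gm49980 is not given in the sources used here.

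Expression was measured as RPKM, in which read counts are divided by the length of the gene and the size of the library, so that levels of different genes can be compared per length. Between 25989673 and 43032291 reads fell on genes in each library (median 36026771.5). The targeted gene, Cort, held 0, 1 and 0 reads in the Cort-/- CL libraries, 0, 4, 1, 0 and 1 in the Cort-/- MCAO libraries, 64, 133 and 139 in the Cort+/+ CL libraries and 108, 93 and 81 in the Cort+/+ MCAO libraries. Every Cort-/- library lay below every Cort+/+ library, so the counts did not go against the genotype labels. A library with 0 reads allows up to 3 reads by counting error. The 5 neuronal markers, which define the main cell type of brain tissue, summed to between 1492 and 2072 RPKM in all libraries, whereas Alb (liver) and Myh6 (heart) stayed below 0.0846 RPKM. The choroid plexus gene Ttr reached 286 to 483 RPKM and the blood gene Hbb-bs 51.6 to 194 RPKM. In bulk hemispheres, fewer cells of a type and less RNA per cell cannot be told apart.

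In the GENCODE M39 annotation of GRCm39, Gm49980 (ENSMUSG00000117465) spans chr18:30400111-30405186 on the plus strand. It has 2 transcripts of 2 exons each, which differ in the first exon (214 or 289 bases) and share a last exon of 1160 bases. Pik3c3 (ENSMUSG00000033628) spans chr18:30405791-30482373, also on the plus strand, with 21 annotated transcripts. Between the end of Gm49980 and the start of Pik3c3 lie 604 bases, and the starts are 5680 bases apart. No exon base of Gm49980 lies in an exon of Pik3c3 in M39. The methods name GENCODE M28, and whether the gene models behind the values were those of M39 is not given in the sources used here, so whether any base was counted for both genes is not known. The lncRNA gene ENSMUSG00000128284 (Gm58508) runs on the minus strand, and 1589 bases of the Gm49980 span lie inside it. The exons of the antisense pair do not overlap (0 shared exon bases). The values imply a length of 1449 bases for Gm49980, equal to its longer transcript, and of 4393 bases for Pik3c3, whose merged exons in M39 cover 10603 bases.

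**Figure D1:**
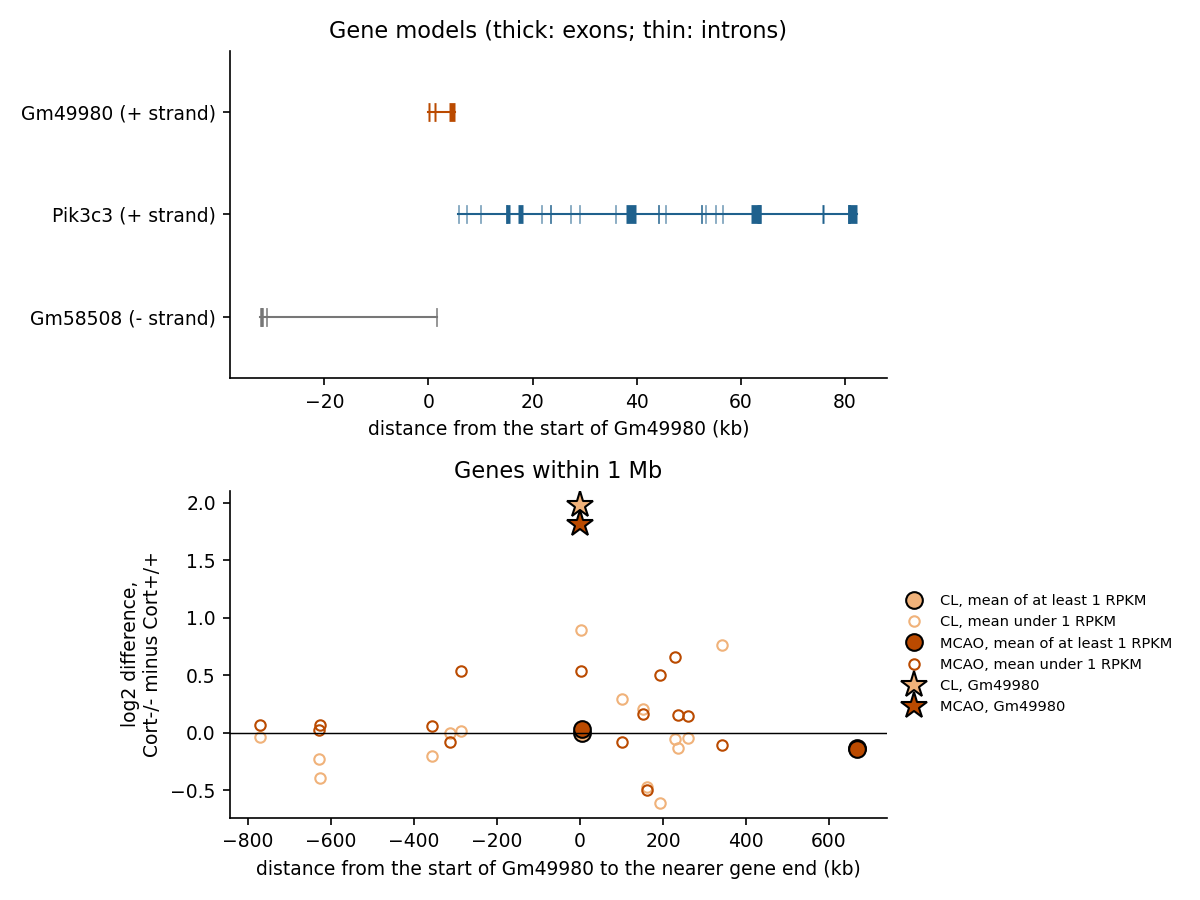
The upper panel maps exons (thick) and introns (thin) of Gm49980, Pik3c3 and Gm58508 by distance in kb from the start of Gm49980. The lower panel plots the log2 difference of RPKM + 0.1, Cort-/- minus Cort+/+, for Gm49980 (stars) and the 17 other genes within 1 Mb (circles, filled for a mean of at least 1 RPKM) in CL and MCAO hemispheres. The stars lie at 1.98 and 1.82, the filled circles of Pik3c3 at 0.00 and 0.03, and those of Rit2 at −0.13 and −0.14.

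Mean Gm49980 was 4.04 times as high in Cort-/- as in Cort+/+ brains in CL and 3.51 times in MCAO hemispheres. In CL hemispheres its level was 3.06, 2.39 and 2.64 RPKM in Cort+/+ mice and 11.03, 12.1 and 9.68 RPKM in Cort-/- mice. Every Cort-/- library lay above every Cort+/+ library, and the lowest of them was 3.16 times the highest Cort+/+ value. The Cort+/+ mean was 2.70 ± 0.337 RPKM (SD, n = 3), and the Cort-/- mean was 10.9 ± 1.19 RPKM (SD, n = 3), 8.22 RPKM higher.

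In MCAO hemispheres Gm49980 stood at 2.76, 2.28 and 4.15 RPKM in Cort+/+ mice and at 10.3, 12.1, 10.03, 11.6 and 9.78 RPKM in Cort-/- mice. The genotypes were again fully apart, with the lowest Cort-/- library at 2.36 times the highest Cort+/+ library, replicate 4. The means were 3.06 ± 0.968 RPKM (SD, n = 3) and 10.7 ± 1.02 RPKM (SD, n = 5), 7.68 RPKM apart. On the log2(RPKM + 0.1) scale the difference between genotypes was 1.98 (SE 0.172) in CL and 1.82 (SE 0.154) in MCAO hemispheres. These values are those by which the gene was selected, and no test is attached to them.

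The level of Gm49980 rested on many reads in every library. Cort+/+ libraries held 161, 120 and 143 reads (CL) and 144, 135 and 186 reads (MCAO), against 551, 581 and 454 (CL) and 648, 760, 384, 701 and 543 (MCAO) in Cort-/- libraries. The Cort-/- MCAO library with the fewest reads, replicate 3, was also the shallowest of the series, and its RPKM of 10.03 lay within the range of its group. The variance between replicates over that of counting alone was 2.17 (Cort+/+ CL), 6.19 (Cort-/- CL), 15.5 (Cort+/+ MCAO) and 5.48 (Cort-/- MCAO). In the same order, the medians of this ratio over genes averaging at least 100 reads were 6.42, 3.86, 3.57 and 5.37. The Cort+/+ MCAO group was the most scattered for Gm49980, with a coefficient of variation of 31.6% against 9.46% to 12.5% in the other groups.

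Among the 19003 genes annotated as lncRNA, Gm49980 ranked 350th by mean RPKM in Cort+/+ CL, 290th in Cort+/+ MCAO, 83rd in Cort-/- CL and 81st in Cort-/- MCAO hemispheres. It was thus within the upper 2% of lncRNA genes in every group (98.2% to 99.6% of them lay lower).

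Pik3c3 showed no genotype difference past the test in either hemisphere, and its groups overlapped. Its level in CL hemispheres was 13.2, 12.5 and 11.5 RPKM in Cort+/+ mice and 12.2, 12.4 and 12.6 RPKM in Cort-/- mice. The Cort-/- libraries fell inside the Cort+/+ range. The means were 12.4 ± 0.874 RPKM (SD, n = 3) and 12.4 ± 0.161 RPKM (SD, n = 3), and the log2 difference was 0.00 (SE 0.0657, 95% confidence interval −0.14 to 0.14, limma adjusted p = 1). The interval corresponds to 0.907 to 1.10 times the Cort+/+ level.

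In MCAO hemispheres Pik3c3 reached 11.6, 11.1 and 12.4 RPKM in Cort+/+ mice and 10.9, 12.7, 12.4, 12.1 and 11.9 RPKM in Cort-/- mice. The groups overlapped, with the lowest value of all in Cort-/- replicate 1. The means were 11.7 ± 0.627 RPKM (SD, n = 3) and 12.0 ± 0.688 RPKM (SD, n = 5). The log2 difference was 0.03 (SE 0.0588, 95% confidence interval −0.09 to 0.16, limma adjusted p = 1), an interval of 0.937 to 1.12 times the Cort+/+ level. Of all genes tested, 0.0152% were called (adjusted p under 0.05) between genotypes in CL and 0.0174% in MCAO hemispheres, and Pik3c3 was in neither set. Both intervals lie far below the ratios of 4.04 and 3.51 seen for Gm49980.

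**Figure D2:**
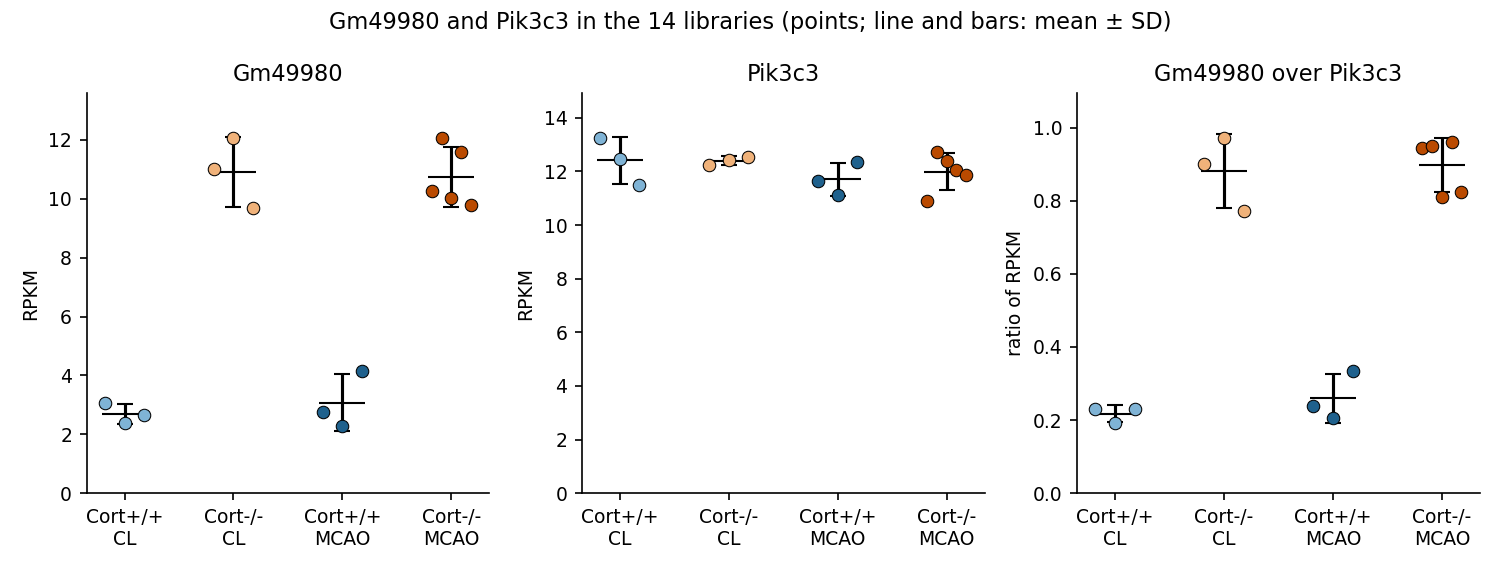
RPKM of Gm49980 (left) and Pik3c3 (middle) and the ratio of the RPKM of Gm49980 to that of Pik3c3 (right) in each of the 14 libraries, by group; points are libraries, and lines with bars are the mean ± SD. Gm49980 and the ratio separate the genotypes in both hemispheres, with the ratio at 0.192 to 0.335 in Cort+/+ and 0.771 to 0.972 in Cort-/- libraries, whereas Pik3c3 stays between 10.9 and 13.2 RPKM in all groups.

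The ratio of the pair, which does not depend on library size, is given as a description. Its separation of the genotypes follows from the choice of Gm49980 and the nearly constant Pik3c3, so it adds no support. Gm49980 stood at 0.231, 0.192 and 0.230 times Pik3c3 per unit length in Cort+/+ CL and at 0.238, 0.205 and 0.335 times in Cort+/+ MCAO hemispheres. In Cort-/- mice the ratio was 0.902, 0.972 and 0.771 in CL and 0.943, 0.950, 0.810, 0.960 and 0.824 in MCAO hemispheres. Cort+/+ MCAO replicate 4 was the highest Cort+/+ library, and no library of 1 genotype reached the range of the other. In reads, this was 7.18 ± 0.734 (SD, n = 3) Gm49980 reads per 100 Pik3c3 reads in Cort+/+ CL and 29.1 ± 3.36 (SD, n = 3) in Cort-/- CL hemispheres.

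Neither gene differed between hemispheres past the test. For Gm49980, the log2 difference MCAO minus CL was 0.14 (SE 0.172, 95% confidence interval −0.23 to 0.51, limma adjusted p = 0.907) in Cort+/+ and −0.02 (SE 0.154, 95% confidence interval −0.36 to 0.31, limma adjusted p = 0.983) in Cort-/- mice. The intervals run from 0.851 to 1.43 times the CL level in Cort+/+ and from 0.782 to 1.24 times in Cort-/- mice, so changes of the lncRNA within them remain possible. These bounds are not the smallest change that the test could call. The order of its group means was Cort-/- CL, Cort-/- MCAO, Cort+/+ MCAO and Cort+/+ CL, and the neighbours within each genotype did not differ beyond the spread between libraries. The Cort+/+ value depended on MCAO replicate 4, without which the difference was −0.09.

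For Pik3c3, MCAO minus CL was −0.08 (SE 0.0657, 95% confidence interval −0.23 to 0.06, limma adjusted p = 0.887) in Cort+/+ and −0.05 (SE 0.0588, 95% confidence interval −0.18 to 0.08, limma adjusted p = 0.808) in Cort-/- mice. Between hemispheres 0.0108% of the genes tested were called in Cort+/+ and 1.72% in Cort-/- mice. These shares depend on the method, as limma voom on recovered reads called 57 and 1294 of the 46102 genes tested. The hemisphere contrast of Pik3c3 did not differ between genotypes beyond error (interaction 0.03, SE 0.0882, 95% confidence interval −0.16 to 0.22, limma adjusted p = 1), where 0.00217% of genes were called. The genes that were called between the hemispheres of Cort-/- mice included 2 of 4 astrocyte markers and 3 of 4 microglia markers. The summed microglia markers had a median of 42.5 RPKM in Cort-/- CL (38.9 to 42.8) and 68.5 RPKM in Cort-/- MCAO hemispheres (54.6 to 78.3). The summed astrocyte markers had medians of 207 RPKM (200.4 to 274) and 455 RPKM (298 to 519). The astrocyte markers did not move alike. At an unadjusted p under 0.05 (limma), 3 of the 4 were higher and 1 was lower, beside 12.7% of all genes. Mean Gfap was 72.8 RPKM in Cort-/- CL and 280 RPKM in Cort-/- MCAO hemispheres, and mean Slc1a3 was 121 and 109 RPKM. In Cort+/+ mice the medians in CL and MCAO hemispheres were 39.8 and 65.9 RPKM for the microglia and 198 and 385 RPKM for the astrocyte markers. There 0 of either list were called, and 3 of 4 in each were higher at an unadjusted p under 0.05 (limma), beside 7.87% of all genes. The response difference between genotypes was called for 0 of either list. Between genotypes, 0 of the 23 marker genes of the 7 lists were called by limma in either hemisphere, and 0.0152% and 0.0174% of all genes were. The part of cell composition in the levels of Gm49980 and Pik3c3 was not tested.

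Within a genotype, libraries with more Gm49980 did not have detectably more or less Pik3c3. In Cort+/+ mice (n = 6 libraries of both hemispheres) Pearson's r was 0.472 (exact permutation p = 0.381, adjusted over the 2 genotypes 0.517) and Spearman's rho 0.543 (exact permutation p = 0.297, adjusted 0.501). In Cort-/- mice (n = 8) r was 0.310 (exact permutation p = 0.517, adjusted 0.517) and rho 0.286 (exact permutation p = 0.501, adjusted 0.501). Without the 2 libraries farthest from the median of Gm49980, r was 0.390 (n = 4) and −0.0446 (n = 6). With 1 library left out, r ranged from 0.258 (without MCAO replicate 3) to 0.644 (without CL replicate 2) in Cort+/+ and from 0.146 (without MCAO replicate 2) to 0.527 (without CL replicate 3) in Cort-/- mice. With each value centred on the mean of its group, r was 0.711 in Cort+/+ mice (permutation p = 0.106, adjusted 0.211). In Cort-/- mice it was then 0.301 (permutation p = 0.514, adjusted 0.514). Centred values are not freely exchangeable between groups, so the p-values after centring are approximate. All tests were two-sided. A hemisphere may share its mouse with another library, and both genes share the library size, so these points are not fully independent.

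**Figure D3:**
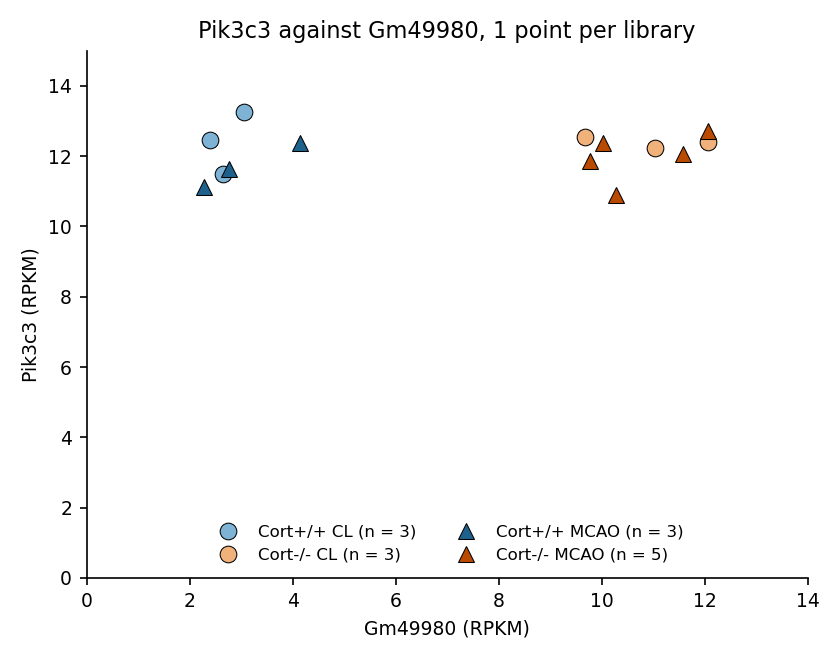
RPKM of Pik3c3 (vertical axis) against RPKM of Gm49980 (horizontal axis), with 1 point per library, circles for CL and triangles for MCAO hemispheres, and colours for the 4 groups. The 6 Cort+/+ libraries lie at 2.28 to 4.15 RPKM of Gm49980 and the 8 Cort-/- libraries at 9.68 to 12.1 RPKM, with Pik3c3 between 10.9 and 13.2 RPKM throughout.

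The rest of the neighbourhood held few transcripts. Apart from Gm49980, the table lists 17 genes within 1 Mb of it, and all 17 had reads in at least 2 libraries and were tested. Only Pik3c3 and Rit2 averaged at least 1 RPKM, 3 others averaged between 0.1 and 1 RPKM, and 12 averaged less than 0.1 RPKM. None of the 17 was called between genotypes by limma, in CL (unadjusted p under 0.05 for 3, 0 called by limma voom on recovered reads) or in MCAO hemispheres (unadjusted p under 0.05 for 0, 0 called by limma voom). Over all genes tested 0.0152% and 0.0174% were called, and 3.91% and 3.82% had an unadjusted p under 0.05, so no call among 17 genes does not set the neighbourhood apart. Their median log2 difference was −0.05 in CL and 0.06 in MCAO hemispheres, beside medians of 0.00 over all genes tested.

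Rit2, which encodes a Ras-like GTPase of neurons and was named after its values were seen, lies 661645 bases beyond Gm49980 on the minus strand. Its level was 23.9, 25.9 and 29.0 RPKM in Cort+/+ CL and 24.6, 23.8 and 23.3 RPKM in Cort-/- CL hemispheres. In MCAO hemispheres it was 22.6, 22.9 and 28.3 RPKM in Cort+/+ and 23.1, 21.5, 25.3, 19.0 and 22.6 RPKM in Cort-/- mice. The groups overlapped, and the log2 differences of −0.13 (SE 0.106, limma adjusted p = 1) and −0.14 (SE 0.0945, limma adjusted p = 1) did not pass the test. The pseudogenes Gm7926 (0.299 RPKM on average) and Gm7930 (0.107 RPKM on average), within 250 kb, held at most 7 and 3 reads in any library, and reads of pseudogenes can be shared with near-identical copies.

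The antisense gene ENSMUSG00000128284 is named here after its values were seen. It held 0, 0 and 0 reads in Cort+/+ CL, 0, 0 and 2 in Cort+/+ MCAO, 2, 5 and 1 in Cort-/- CL, and 4, 2, 4, 3 and 0 in Cort-/- MCAO libraries. Reads were present in 1 of 6 Cort+/+ and 7 of 8 Cort-/- libraries, 2 against 21 reads in all, but all 6 Cort+/+ and 5 of the 8 Cort-/- libraries were at or below the 3 reads that a count of 0 allows. Its log2 differences of 0.89 (SE 0.352) in CL and 0.54 (SE 0.315) in MCAO hemispheres had a limma adjusted p of 1 in both. The library kit keeps the strand, but whether counting used it is not given in the sources used here, and reads of Gm49980 and its antisense partner may be mixed. The other genes under an unadjusted p of 0.05 in CL, Gm41780 and ENSMUSG00000140292, also named after their values were seen, held at most 2 and 3 reads.

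Of the 1312 other genes of chromosome 18 that were tested, limma called 1 between genotypes in CL (unadjusted p under 0.05 for 51, 0 called by limma voom) and 0 in MCAO hemispheres (unadjusted p under 0.05 for 37, 0 called by limma voom), where 0.0152% and 0.0174% of all genes were called. That gene, the snoRNA Gm55190, named after its values were seen, lies 19.8 Mb away and was called on 1 read in each Cort+/+ CL library and 0 reads elsewhere.

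The transcripts of the Vps34 complex showed no genotype difference past the test. Pik3r4, the regulatory kinase-like subunit, had a mean of 9.05 ± 0.437 RPKM (SD, n = 3) in CL hemispheres of Cort+/+ mice, against 9.53 ± 0.106 RPKM (SD, n = 3) in those of Cort-/- mice, a log2 difference of 0.08 (SE 0.0777, limma adjusted p = 1). Becn1, the scaffold that binds Vps34, averaged 19.9 ± 0.659 RPKM (SD, n = 3) and 19.5 ± 0.768 RPKM (SD, n = 3), a difference of −0.02 (SE 0.0459, limma adjusted p = 1). Pik3c3 thus stood between these subunits in level.

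The partners that direct the complex to its sites did not pass the test either. Atg14 directs it to autophagosome formation and Uvrag to endosomes, and Nrbf2 binds the Atg14 form. In CL hemispheres their log2 genotype differences were −0.01 (SE 0.0688), 0.03 (SE 0.0862) and −0.05 (SE 0.0699), and in MCAO hemispheres −0.04 (SE 0.0615), 0.11 (SE 0.0771) and 0.07 (SE 0.0625). All had a limma adjusted p of 1. With MCAO against CL in Cort-/- mice, Pik3r4 and Atg14 had log2 differences of −0.12 each (limma adjusted p = 0.541 and 0.470), also short of the threshold.

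**Figure D4:**
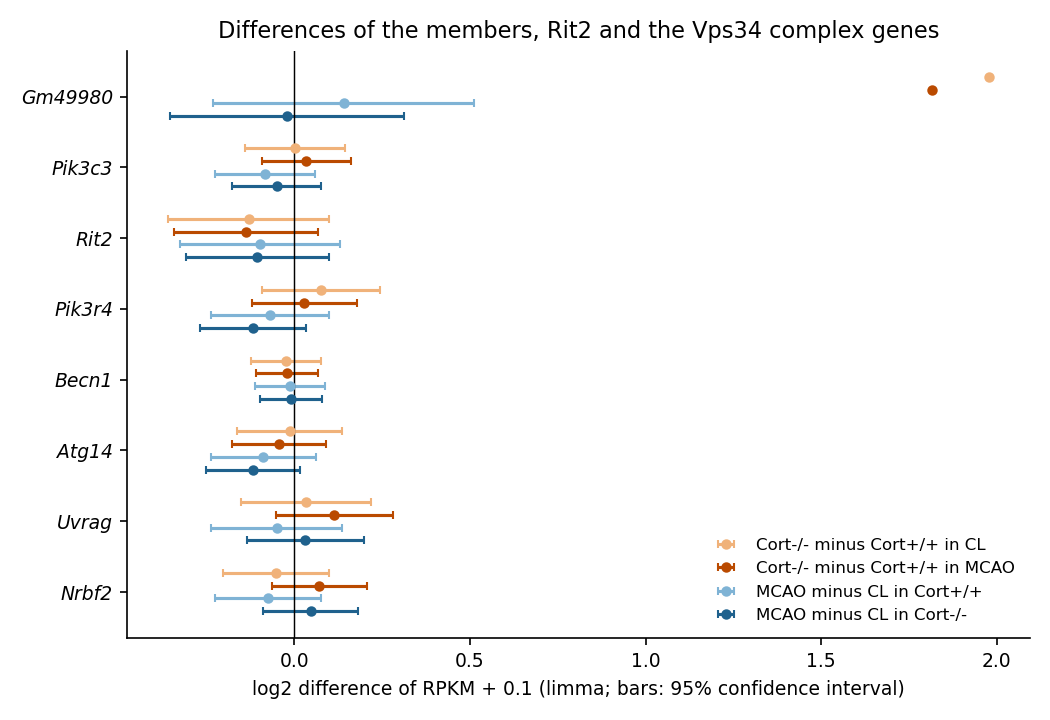
log2 differences of RPKM + 0.1 for Gm49980, Pik3c3, the neighbour Rit2 and 5 genes of the Vps34 complex, in the 4 contrasts given by colour. Bars are 95% confidence intervals from limma, and the genotype differences of Gm49980, by which it was chosen, are points with no interval, at 1.98 and 1.82. Every interval of the other 7 genes includes 0.

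A list of 56 genes of Vps34 function, Pik3c3 included, was taken by role, comprising the complex and its regulators, readers of PI3P, the enzymes that convert PI3P, and the autophagy initiation and conjugation machinery. All 56 were tested, and 0 were called by limma between genotypes in CL (1 with an unadjusted p under 0.05, 0 called by limma voom) or in MCAO hemispheres (0 and 0), where 0.0152% and 0.0174% of all genes were called and 3.91% and 3.82% had an unadjusted p under 0.05. Their median log2 difference was 0.00 in CL (−0.18 to 0.13) and −0.02 in MCAO hemispheres (−0.10 to 0.11), beside medians of 0.00 over all genes. The gene with the unadjusted p in CL was Map1lc3b, an LC3 protein of the autophagosome membrane named after its values were seen, at −0.13 (SE 0.0544).

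Between hemispheres 0 of the 56 genes were called in Cort+/+ mice (2 with an unadjusted p under 0.05, 0 by limma voom), where 0.0108% of all genes were called and 7.87% fell under that unadjusted limit. In Cort-/- mice 0 were called as well (8 with an unadjusted p under 0.05, 4 higher and 4 lower, 0 by limma voom), where 1.72% of all genes were called and 12.7% had an unadjusted p under 0.05. Their medians were −0.02 and −0.04, beside 0.00 over all genes. The list member that differed most was Rubcnl, a Rubicon-like regulator of the complex, at 0.55 (SE 0.175, limma adjusted p = 0.364) in Cort+/+ and 0.49 (SE 0.156, limma adjusted p = 0.158) in Cort-/- mice, named here after its values were seen. Of the 7 other catalytic subunits of phosphatidylinositol 3-kinases, 1 rose between the hemispheres of Cort-/- mice. This was Pik3cg, the gamma subunit of leukocytes and also named after its values were seen, whose CL mean was 0.609 ± 0.142 RPKM (SD, n = 3), and whose MCAO mean was 1.12 ± 0.20 RPKM (SD, n = 5, log2 difference 0.78, SE 0.178, limma adjusted p = 0.0463). In Cort+/+ mice Pik3cg averaged 0.536 ± 0.0694 RPKM (SD, n = 3) and 0.925 ± 0.181 RPKM (SD, n = 3), with a log2 difference of 0.68 (SE 0.199, limma adjusted p = 0.329). The call in Cort-/- mice was close to the threshold, and it was lost on leaving out 1 library in 12 of 14 cases, with only Cort-/- MCAO replicate 3 and Cort+/+ MCAO replicate 4 dispensable (adjusted p 0.0284 to 0.197, lost at 0.165 with a replicate block). The microglia markers moved with it, as given above, and their part in it was not tested.

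Likeness of pattern was measured as the root mean square difference between log2(RPKM + 0.1) values over the 14 libraries, each gene centred on its own mean, among 15062 genes averaging at least 1 RPKM. The nearest to Gm49980 was Gm43305, a lncRNA gene of chromosome 14, at a difference of 0.482, followed by ENSMUSG00000121574 and ENSMUSG00000121573 of chromosome 19, ENSMUSG00000141158 of chromosome 11 and Mir5131 of chromosome 14 at 0.593 to 0.650. These are not close matches, since the centred values of Gm49980 have a root mean square of 0.959 themselves. The measure includes the genotype difference by which Gm49980 was chosen, so its nearest genes add no support for that difference. Pik3c3 ranked 3546th, at 0.950, near the median of 0.972 over the genes compared. Among the genes nearest to Pik3c3 were Chd8, Ncoa4, Zfp507 and Ube2o at 0.0384 to 0.0450, all genes of nearly constant level, as the root mean square of Pik3c3 itself was 0.0740. Gm49980 ranked 14864th for Pik3c3.

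Just outside the rule that chose Gm49980, of the genes outside chromosome 4 with at least 1 RPKM on average, the next after it by the larger of the genotype adjusted p-values were Gm43305 and Akap17a of chromosome X, neither of them called. Gm43305 averaged 1.97 ± 0.555 RPKM (SD, n = 3) in Cort+/+ CL, 4.92 ± 1.30 RPKM (SD, n = 3) in Cort-/- CL, 1.94 ± 0.562 RPKM (SD, n = 3) in Cort+/+ MCAO and 5.79 ± 0.824 RPKM (SD, n = 5) in Cort-/- MCAO hemispheres. Akap17a, a splicing-related anchoring protein, differed by 0.37 in CL and 0.31 in MCAO hemispheres on the log2 scale. Gm49980, just inside, differed by 1.98 and 1.82.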

How the data were processed

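The authors used reanalyzerGSE with the GRCm39 genome, and deposited 1 column of RPKM for each library, so replicates were not pooled. The methods name GENCODE M28. Gene lengths, the scaling of library sizes and the use of strand are not given in the sources used here. Positions come from GENCODE M39, to which 46603 of 46904 gene names (99.4%) matched. Library sizes and gene lengths that turn all 495656 values above 0 into whole reads (tolerance 0.001) were recovered from the values. No per-sample column was left unused.

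Tests covered the 46102 genes with a value above 0 in 2 or more libraries. The log2(RPKM + 0.1) values were fitted with limma 3.58.1 in R 4.3.3 (1 model of the 4 groups, moderated variances with trend), and genes with a Benjamini-Hochberg adjusted p under 0.05 over all genes tested were called. Fold changes on this scale understate those of low genes. The limit on a count of 0 covers counting error only, whereas the limma intervals rest on the variance between libraries. Correlations used exact permutations (scipy 1.17.1, with numpy 2.4.6, pandas 2.3.3 and matplotlib 3.10.9 under Python 3.11.15).

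The members and lists were chosen with earlier results of these data known. Named genes are Gm49980 and Pik3c3, genes within 250 kb of at least 0.1 RPKM, core Vps34 genes, listed genes that were called, the 5 genes most like each member (1 of them is not reported here), the 2 genes next after Gm49980 by the genotype contrasts, and Cort. All 19 pairs of libraries within a group differed by more than counting error (mean chi-square per gene of at least 5.86). The fit was tested on simulated data. Between genotypes it recovered 88 (CL) and 93 (MCAO) of 100 genes changed 2-fold, and 99 and 98 of 100 changed 4-fold. It made 15 and 11 false calls among 44534 genes tested. Alternatives were other pseudocounts, filters and scalings, library weights, limma voom on recovered reads, replicate blocks and leaving out each library. Reads along the genes were not analysed here.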

Additional observations from a re-analysis of the deposited data

Results flagged for a closer look

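Among 13 sets of values checked in the 5 Cort-/- MCAO libraries (the only group large enough to check), 1 library stood far from the rest of its group. Gm43305, the lncRNA gene nearest in pattern to Gm49980, was at 4.38 RPKM in Cort-/- MCAO replicate 2, with the other 4 libraries between 5.94 and 6.54 RPKM. The gap was 0.726 of the range of the group, past the 95% limit of 0.71, which chance exceeds in about 1 in 20 groups. The values of Gm49980, Pik3c3 and their ratio held no such library.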

How the results depend on the processing

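Of 428 repeats of 18 results under other settings, 397 kept their direction and their side of the threshold (or, for values with no test, stayed within the spread between replicates), 13 changed sign at values near 0, and 18 moved or lost a call. Of these 18, 16 were the call of Pik3cg between the hemispheres of Cort-/- mice (alternatives chosen after seeing the data), which was lost in 12 of 14 repeats with 1 library left out (adjusted p 0.0284 to 0.197) and in 4 of 12 other settings (0.0118 to 0.378), at a difference of 0.39 to 0.93. Pik3c3 was called in 0 of 126 repeats, and no neighbour within 1 Mb and no gene of the Vps34 list was called in any. The difference of Gm49980 between genotypes was 1.69 to 2.07 in CL and 1.55 to 2.05 in MCAO hemispheres, with 1.69 and 1.55 at a pseudocount of 1, which shrinks differences by its construction. In each hemisphere 24 of 25 repeats of this difference are among those kept. Since it chose the gene, that part of the tally adds no support. The sign changes were as follows, and their cause was not tested. For Pik3c3 in CL, Cort-/- minus Cort+/+ was −0.0021 with median ratios, −0.0046 with quantile normalization, and −0.0518 to 0.0492 with 1 library left out. With 1 library left out, Pik3c3 in MCAO ranged from −0.0024 to 0.0737 and its interaction from −0.0155 to 0.0856. For Gm49980, MCAO minus CL in Cort+/+ mice was −0.0028 with a replicate block within genotype and ranged from −0.0939 to 0.323 with 1 library left out, lowest without Cort+/+ MCAO replicate 4. In Cort-/- mice it was 0.0049 on the TPM scale and ranged from −0.106 to 0.0514.

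Deviations of same-numbered CL and MCAO libraries correlated at −0.141 to 0.316 in Cort+/+ mice (2 pairs). In Cort-/- mice they correlated at −0.239 to 0.0271 (3 pairs). With so few pairs, these values cannot decide whether such libraries share a mouse. With the replicate number as a block, Pik3c3 differed between genotypes by 0.0012 in CL and 0.0473 in MCAO (adjusted p = 1 in both, limma), and of the results repeated the block changed only the call of Pik3cg (adjusted p = 0.165, or 0.378 with the block within genotype). With 3 to 5 libraries a group, changes of Pik3c3 within its confidence intervals (0.907 to 1.12 times) cannot be told from no change. These bounds are not the smallest change that the test could call. Every library held at least 120 reads of Gm49980 and 1438 of Pik3c3.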
